A study of Saccharomyces cerevisiae with 31 samples.

Results

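The 7 genes that make and break down trehalose in budding yeast (Saccharomyces cerevisiae) were followed in cells held undivided while they grew large, and in wild-type controls. They were taken by name from the 6713 genes of the deposited scaling table: 4 genes of synthesis (TPS1, TPS2, TPS3 and TSL1) and 3 of breakdown (NTH1, NTH2 and ATH1). The Cdc28-as genotype is an analog-sensitive allele of CDC28, whose kinase is needed for yeast to enter and complete division, and 1NM-PP1 is a drug that fits and inhibits this altered kinase. In 3 experiments Cdc28-as cells were sorted by size in a centrifuge (elutriation) and then received 1NM-PP1, with 5, 3 and 3 libraries that spanned 15.23 to 50.77, 14.92 to 41.8 and 18.61 to 66.46 fl (femtolitres) of cell size. A Cdc28-as time course after 1NM-PP1 without elutriation gave 8 libraries from 21.56 to 44.02 fl. The controls were wild-type (WT) cells, which lack that allele and received 1NM-PP1 as well. The elutriated control had 6 libraries at 2 to 7 h, and the unelutriated control had 6 at 0 to 6 h. All 31 libraries came from cells in YEP with 1% ethanol to which a known amount of Candida albicans had been added, and neither the strain background nor the number of cultures is stated in the labels.

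Trehalose is a disaccharide of glucose that yeast stores when growth slows and that protects proteins and membranes under stress. Tps1 joins UDP-glucose and glucose 6-phosphate to trehalose 6-phosphate, and Tps2 removes the phosphate. Both enzymes sit in a complex with the related large subunits Tps3 and Tsl1. The neutral trehalase Nth1 splits the sugar inside the cell and is switched on by protein kinase A (PKA), while Nth2 is its less studied paralogue and the acid trehalase Ath1 serves growth on trehalose from outside. Many genes of this pathway respond to stress through Msn2 and Msn4, transcription factors that bind the stress response element, whose letters are AGGGG, or CCCCT on the other strand.

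The authors' deposited table gives 1 scaling score per gene and series and no value per library. In experiments 1 and 3 and in the WT controls, 104, 111, 96 and 44 genes held the score expected if the gene was seen in the first library alone and the score is a slope of abundance over its value there, per fl for Cdc28-as and per hour for WT. In experiment 2 and the time course 2 and 3 genes held it, too few for a check, and the same reading was assumed. A score of 0 would then be a level that held steady on the authors' scale, and a negative score is a level that went down along the series. The labels do not say if that scale counts shares of a library or amounts per cell, so a smaller share and less RNA per cell cannot be told apart. Size and time in arrest also advance together and cannot be told apart. Among all genes scored in a series, the median gene scored 0.00701, 0.0108 and 0.00132 per fl in elutriation experiments 1, 2 and 3, and -0.0201 per fl in the time course. Among the 5771 genes scored in all 3 elutriation experiments it scored 0.00735, 0.0110 and 0.00178 per fl. Scores over the median gene in these experiments, and counts below or above it, use these last values. Depth per library is unknown.

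Stress response element letters upstream of the members are shown because the 7 genes differ in how many they carry, a feature that played no part in choosing them. In the 500 bases before the start codon (R64), TPS1 held 6 matches, TSL1 held 5, TPS2 held 4, NTH1 held 3, TPS3 held 2, ATH1 held 1 and NTH2 held 0, with AGGGG and CCCCT both counted and overlapping matches allowed. Of 6019 such windows of protein-coding genes, 34.0% held at least 1 match, 8.12% at least 2 and 0.449% at least 4. Matches that overlap another gene were counted too. These were the match 472 bases before TPS1, in YBR126W-A, and those 378 and 326 bases before TSL1, in YML100W-A. The match nearest the start codon is given for each of the 6 genes that had one, 5′ to 3′ on the gene's strand with 10 bases on either side, and capitals mark the match.
TPS1 (chrII:490617-490641, minus strand, 239 bases before the start codon): aggggctctcAGGGGggcgccatgg
TPS2 (chrIV:593575-593599, plus strand, 308 bases before): gtctgattatAGGGGttagttacgc
TPS3 (chrXIII:793572-793596, minus strand, 217 bases before): attaattaatCCCCTtcagcacgca
TSL1 (chrXIII:70449-70473, plus strand, 165 bases before): ggtagaaccaAGGGGctagcacact
NTH1 (chrIV:452613-452637, minus strand, 152 bases before): agaaattttcCCCCTatcgttttcc
ATH1 (chrXVI:615065-615089, plus strand, 304 bases before): ctcttctttgCCCCTcaaaatttat
The TPS1 stretch also holds a second copy in its first bases, left in lower case. A match is a description of the letters and not of a bound site, and the absence of a match upstream of NTH2 covers this window alone.

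**Figure D1:**
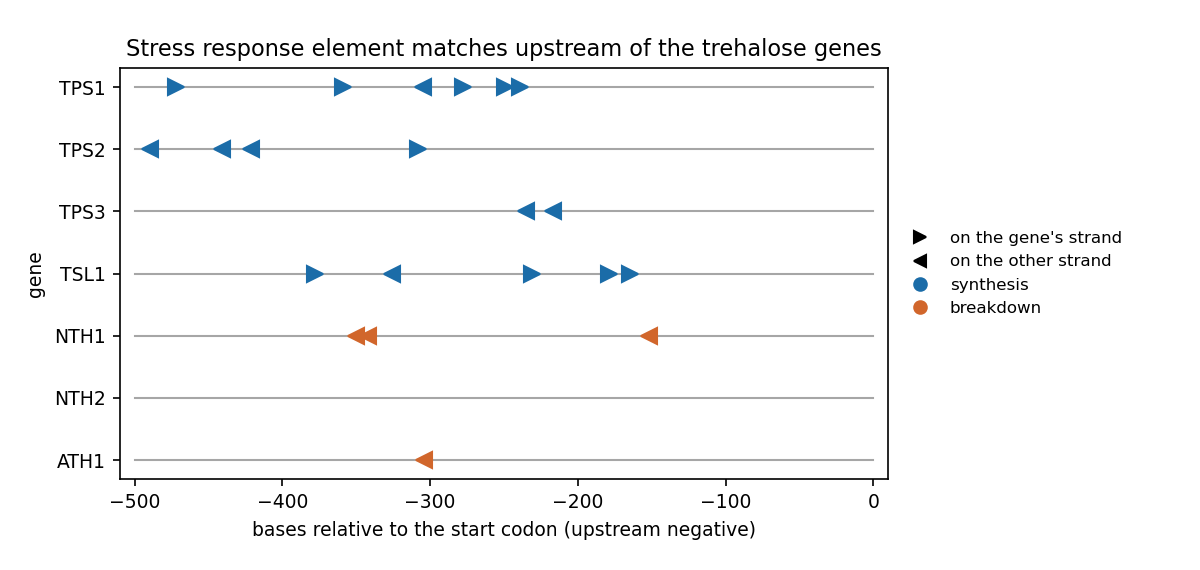
Positions of AGGGG (pointing right) and CCCCT (pointing left) in the 500 bases before the start codon of each gene, in bases on the horizontal axis. TPS1 carries 6 matches and TSL1 5, while NTH2 carries 0.

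All 7 genes scored lower than the median gene in each of the 3 elutriation experiments, which 22.5% of the 5771 genes with 3 scores also did. On average the 4 synthesis genes lay at -0.0234 to -0.0169 per fl over the median gene and the 3 breakdown genes at -0.0147 to -0.00744 per fl. None passed the test. By limma's moderated test, with Benjamini-Hochberg adjustment over 5771 genes, 0 of the 7 members and 0% of all genes had an adjusted p under 0.05. At an unadjusted p under 0.05, limma placed 3 of the 7 members (TPS1, TPS2 and TSL1) below the median gene, against 3.73% of all genes. That count was 0 of 7 with elutriation experiment 1, 2 or 3 left out, against 0.347%, 0.0347% and 0.901% of all genes. It was 1 of 7 on the scores as deposited, against 1.09% of all genes. Among genes with at least 10 reads it was 5 of 7, against 4.67%. With the time course added it was 3 of 7, against 4.12%. When scores were replaced by rank-based normal scores, limma again called 0 members and 0% of all genes, and 5 of 7 members were low at an unadjusted p under 0.05, against 11.1% of all genes. The lowest adjusted p among the members was then 0.0899, for TPS2.

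TPS2, the phosphatase gene (YDR074W, R64 chromosome IV, 593893 to 596583), scored -0.0138, -0.0208 and -0.0154 per fl in elutriation experiments 1, 2 and 3. Over the size span these slopes amount to changes of -0.491, -0.560 and -0.736 times the level in the first library, as fitted values and not as measured differences. It stood at the 16.7th, 3.67th and 6.25th percentiles of all genes in those experiments. Its mean was -0.0234 per fl over the median gene, the lowest of the members (limma SE 0.00648, 95% interval -0.0420 to -0.00476, adjusted p = 0.460).

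TPS1, the synthase gene (YBR126C, chromosome II, 488905 to 490392), scored -0.00915, -0.0189 and -0.0141 per fl, or -0.325, -0.509 and -0.675 times the first level over the span. Its mean was -0.0208 per fl over the median gene (limma SE 0.00656, adjusted p = 0.460). TPS1 was the most abundant member: the authors' median read count in experiment 1 was 165, or 111 reads per kb of coding length. The other members had 5.12 (NTH2) to 26.2 (NTH1) reads per kb on the same scale. TPS1 scored above TPS2 in each of the 3 experiments, by 0.00466, 0.00187 and 0.00127 per fl.

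The large subunit genes are a pair of paralogues. TSL1 (YML100W, chromosome XIII, 70624 to 73920) scored -0.0158, -0.0146 and -0.0133 per fl, the lowest member in experiment 1. TPS3 (YMR261C, chromosome XIII, 790205 to 793369) scored -0.00663, -0.0121 and -0.0117 per fl, the highest of the synthesis genes in each experiment. Their coding sequences were identical at 64.1% of 3116 aligned bases with no shared run longer than 15 bases. TSL1 lay below TPS3 by 0.00922, 0.00247 and 0.00166 per fl. Their limma means over the median gene were -0.0213 (SE 0.00608) and -0.0169 (SE 0.00608) per fl, both at an adjusted p of 0.460.

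**Figure D2:**
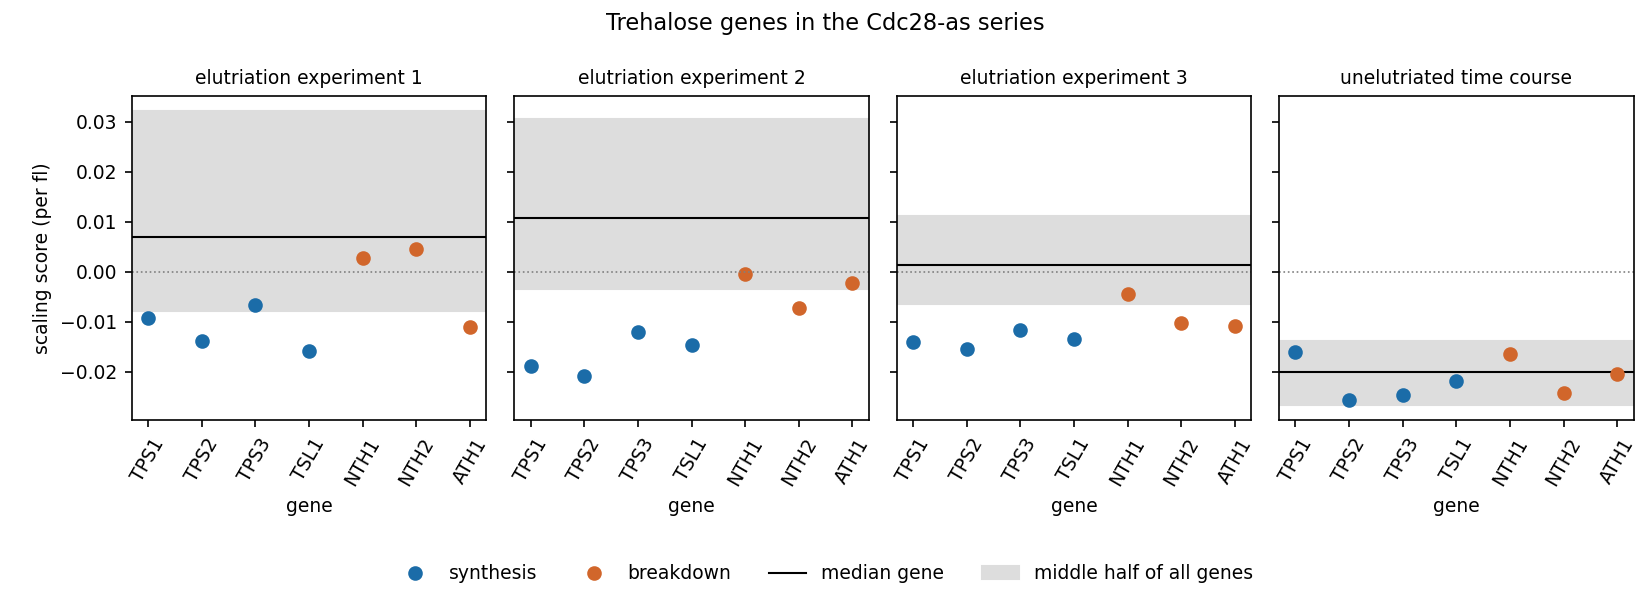
Scaling score in per fl (vertical axis) of each gene (horizontal axis) in the 4 Cdc28-as series, 1 point per gene and series, with the median gene as a line and the range from the 25th to the 75th percentile of all genes in grey. All 7 genes lie below the line in the 3 elutriation experiments, and TPS1 and NTH1 lie above it in the time course.

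Among the breakdown genes, NTH1 (YDR001C, chromosome IV, 450220 to 452475) was closest to the median gene by its mean over the 3 experiments, while in experiment 1 NTH2 was closer. NTH1 scored 0.00274, -0.000407 and -0.00451 per fl, at the 43.5th, 30.2nd and 30.2nd percentiles. These slopes amount to changes of 0.0972, -0.0109 and -0.216 times the first level. Its mean of -0.00744 per fl over the median gene had an SE of 0.00582 and an adjusted p of 0.539 in limma, and the 95% interval ran from -0.0242 to 0.00928.

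NTH2 (YBR001C, chromosome II, 238941 to 241283) scored 0.00461, -0.00717 and -0.0103 per fl, so its direction differed between experiment 1 and the other two. It had the fewest reads of the members, a median of 12 in experiment 1. NTH1 and NTH2 were identical at 72.0% of 2247 aligned coding bases, with a longest shared run of 33 bases, and the labels do not state how a read that fits both was counted. ATH1 (YPR026W, chromosome XVI, 615379 to 619014) scored -0.0110, -0.00228 and -0.0108 per fl and had 25 median reads. In limma NTH2 had a mean of -0.0110 (SE 0.00652, adjusted p = 0.487) and ATH1 of -0.0147 per fl over the median gene (SE 0.00578, adjusted p = 0.460). None of the 7 genes overlaps another annotated gene, so the use of strand in counting does not touch them through an overlap.

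As medians the synthesis genes scored lower than the breakdown genes in each elutriation experiment. The median of the 4 synthesis genes was -0.0115, -0.0168 and -0.0137 per fl, and that of the 3 breakdown genes 0.00274, -0.00228 and -0.0103 per fl. The differences were -0.0142, -0.0145 and -0.00347 per fl, with a mean of -0.0107 ± 0.00629 (SD, n = 3). The arms did not overlap in experiments 2 and 3. In experiment 1 they overlapped through ATH1, which lay below TPS1 and TPS3. As percentiles in experiments 1, 2 and 3 the synthesis median was 19.7, 6.89 and 8.69 and the breakdown median 43.5, 27.0 and 14.6. Taken gene by gene, the synthesis gene was lower than the breakdown gene in all 3 experiments in 10 of 12 pairs. The exceptions were TPS1 and TPS3 against ATH1. These pairs reuse the same genes and are not independent. The synthesis gene was lower in 8 of 12 pairs in the time course. In the elutriated and unelutriated WT controls it was lower in 4 of 9 and 6 of 9 pairs. No test was made over the members as a set, since they were chosen with results of these data known.

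By mean over the 3 experiments the members ran from lowest to highest as TPS2, TSL1, TPS1, TPS3, ATH1, NTH2 and NTH1. Neighbours in this order were 0.000534 to 0.00391 per fl apart, and the SDs of single genes over the 3 experiments were 0.00316 to 0.00795 per fl. No gap between neighbours was larger than the SDs of both genes, but these are not SDs of differences within an experiment. Within experiments TPS1 lay below TPS3 in 3 of 3. The other neighbours kept this order in 1 (TSL1 and TPS1) or 2 of 3.

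In the unelutriated Cdc28-as time course the members lay on both sides of the median gene. TPS1 scored -0.0160 and NTH1 -0.0164 per fl, both above the median gene of -0.0201. TPS2 scored -0.0257, TPS3 -0.0247, NTH2 -0.0242, TSL1 -0.0218 and ATH1 -0.0205 per fl, all below it. The arms overlapped, with medians of -0.0232 for synthesis and -0.0205 for breakdown. Of the 7 members, 5 thus stayed under the median gene in each of the 4 Cdc28-as series, as did 13.4% of the 5758 genes with 4 scores. In percentiles the members ran from 28.2 (TPS2) to 67.0 (TPS1). Every member stood higher in percentile here than in experiments 2 and 3, and each but NTH2 also stood higher than in experiment 1.

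WT cells went through the inhibitor and the hours in culture, and in one series the sort, without an analog-sensitive kinase. TPS3 had no score in either WT series, like 162 genes in all, so 6 members could be followed. In the elutriated control ATH1 scored 7.26, TPS2 7.05, TSL1 4.50, NTH1 1.40, TPS1 0.386 and NTH2 -0.106 per hour, against a median gene of 0.136. Scores in that series spread widely, with 0.774 at the 75th percentile of genes and 378 at the top, and in percentiles the members stood at 91.8 for ATH1, 91.7 for TPS2, 88.9 for TSL1, 79.9 for NTH1, 67.0 for TPS1 and 14.8 for NTH2. Thus 5 of the 6 lay above the median gene, and NTH2 was the exception.

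In the unelutriated WT control the order was another one. NTH2 scored 0.138, NTH1 0.0580, TSL1 0.0425, TPS1 -0.0287, TPS2 -0.0492 and ATH1 -0.0878 per hour, against a median gene of -0.0390. NTH2 moved from the 14.8th percentile in the elutriated control to the 91.0th here, and ATH1 from the 91.8th to the 29.9th. The arms overlapped in both WT series.

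**Figure D3:**
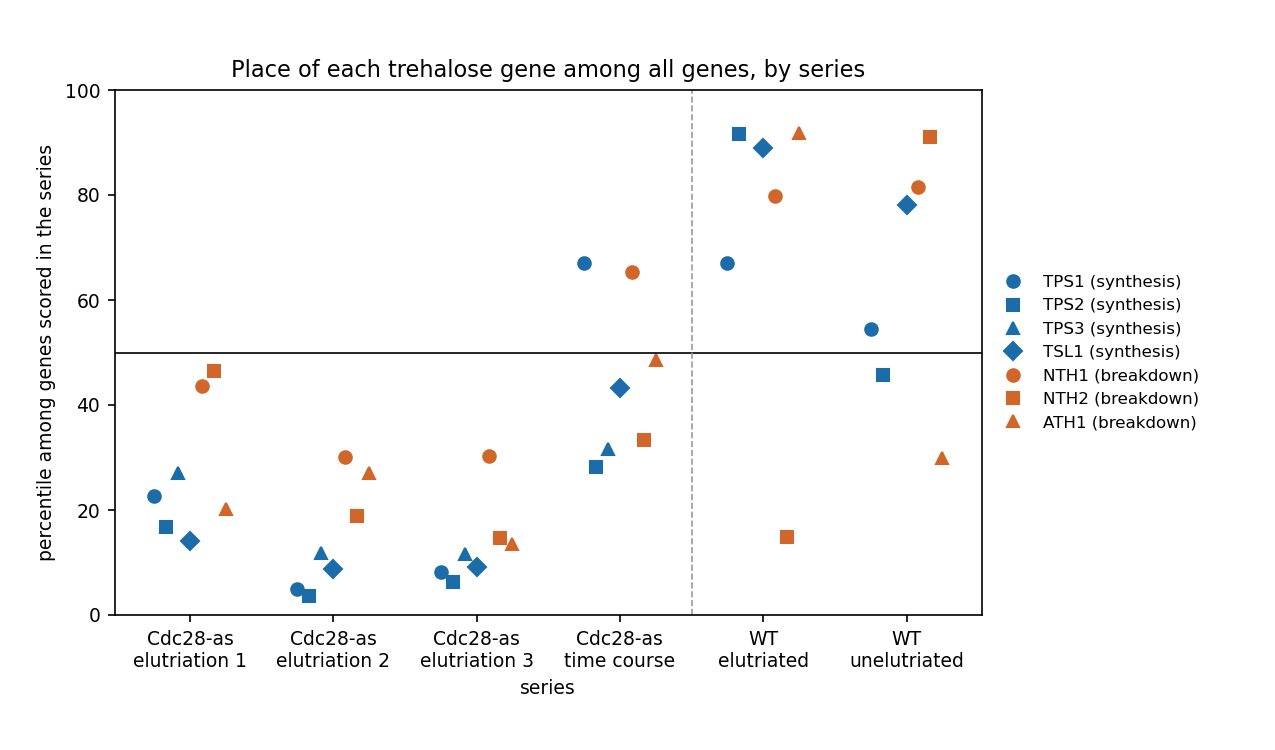
Percentile of each gene's score (vertical axis) among all genes scored in the same series (horizontal axis), 1 point per gene, with the 50th percentile as a line and Cdc28-as to the left of the dashed line. The synthesis genes sit at percentiles of 3.67 to 27.1 in the elutriated Cdc28-as experiments. In the elutriated WT control TPS2, TSL1 and TPS1 sit at 91.7, 88.9 and 67.0, and TPS3 has no score. The breakdown genes ATH1, NTH1 and NTH2 sit there at 91.8, 79.9 and 14.8.

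The difference between genotypes was tested on normal scores, which have no unit, with elutriation as a covariate over 4 Cdc28-as and 2 WT series. Limma called 0 of 6 members and 0% of 5296 genes. At an unadjusted p under 0.05, limma placed TPS2 and TSL1 lower in Cdc28-as cells, that is 2 of 6 members against 6.36% of all genes. TPS2 differed by -1.98 (SE 0.700, adjusted p = 0.255) and TSL1 by -1.89 (SE 0.642, adjusted p = 0.253) in limma. The remaining differences ran from -1.18 for ATH1 to -0.516 for NTH2, with adjusted p values of 0.499 to 0.794 in limma. With the elutriated WT control left out, the limma difference was -0.560 for TPS2 and -0.948 for TSL1, and it was positive for TPS1 and ATH1. The covariate then absorbs the elutriation experiments, so that difference is only the time course against the unelutriated WT control. Cdc28-as scores run along size and WT scores along hours, so the genotype and the axis of the score cannot be told apart.

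Genes around the pathway were read the same way in the elutriated Cdc28-as experiments, where limma called 0 of the 42, on scores or on normal scores. At an unadjusted p under 0.05 limma placed 6 of 10 stress protein genes, 3 of 8 glycogen genes, 1 gene of hexose phosphate supply, 1 of trehalase regulation and 0 regulators below the median gene, against 3.73% of all genes. On normal scores these counts were 8 stress protein genes, 5 glycogen genes, 3 regulators and 2 genes of each other list, against 11.1% of all genes. Over all genes, 22.5% lay below the median gene in each of the 3 experiments and 22.3% above it, the shares to set beside the counts that follow. Of 8 glycogen enzymes, the other glucose store, 6 were under the median gene throughout and 0 above, with a list median of -0.0175 per fl over the median gene. The glycogenin gene GLG1 averaged -0.0238 ± 0.00918 and the branching enzyme gene GLC3 -0.0235 ± 0.00714 per fl (SD, n = 3). The other glycogenin gene GLG2 averaged 0.0470 ± 0.0825 and the sporulation glucoamylase gene SGA1 0.0170 ± 0.0359 per fl, with 10.5 and 6 median reads. Of 10 stress protein genes, 8 lay below throughout and 0 above, with a median of -0.0211 per fl. The small stress protein gene HSP12 averaged -0.0312 ± 0.0148 and the catalase gene CTT1 -0.0268 ± 0.00700 per fl. The Hsp70 gene SSA3 averaged 0.00304 ± 0.00969 and the mitochondrial superoxide dismutase gene SOD2 0.000892 ± 0.0161 per fl. The trehalose enzymes had a median of -0.0169 per fl on this scale and all genes one of 0.00249.

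Upstream of Tps1, 7 genes supply hexose phosphates and UDP-glucose. Of these, 4 lay below throughout and 0 above, against 22.5% and 22.3% of all genes, with a median of -0.00780 per fl. PGM2, the major phosphoglucomutase, averaged -0.0211 ± 0.00935 and the hexokinase gene HXK1 -0.0160 ± 0.00666 per fl. HXK2, the hexokinase of growth on glucose, averaged 0.0119 ± 0.0133 and PGM1, the minor phosphoglucomutase, -0.000220 ± 0.00763 per fl. The UDP-glucose pyrophosphorylase gene UGP1 averaged -0.0126 ± 0.00941 per fl.

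Of 12 genes of the PKA pathway and of stress regulation, 10 were under the median gene throughout and 1 above, against 22.5% and 22.3% of all genes, with a median of -0.0106 per fl. The GTPase gene RAS2 averaged -0.0156 ± 0.00748 and TPK2, a catalytic subunit of PKA, -0.0156 ± 0.00640 per fl. The 1 gene above throughout was PDE2, a cAMP phosphodiesterase, at 0.0231 ± 0.0316 per fl, and TPK3 averaged 0.0183 ± 0.0306. MSN2 and MSN4 averaged -0.0140 ± 0.00371 and -0.00943 ± 0.00614 per fl. Of 5 genes of trehalase regulation and trehalose uptake, 2 lay below throughout and 0 above, beside the same shares of all genes. These were DCS2, at -0.0180 ± 0.00146, and the sugar transporter gene MAL11, at -0.0157 ± 0.00441 per fl with 6.5 median reads. The decapping scavenger gene DCS1, paralogue of DCS2, averaged -0.000340 ± 0.0139 per fl. The 14-3-3 protein genes BMH1 and BMH2, whose products bind Nth1, averaged -0.00508 ± 0.00924 and -0.00161 ± 0.00292 per fl.

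**Figure D4:**
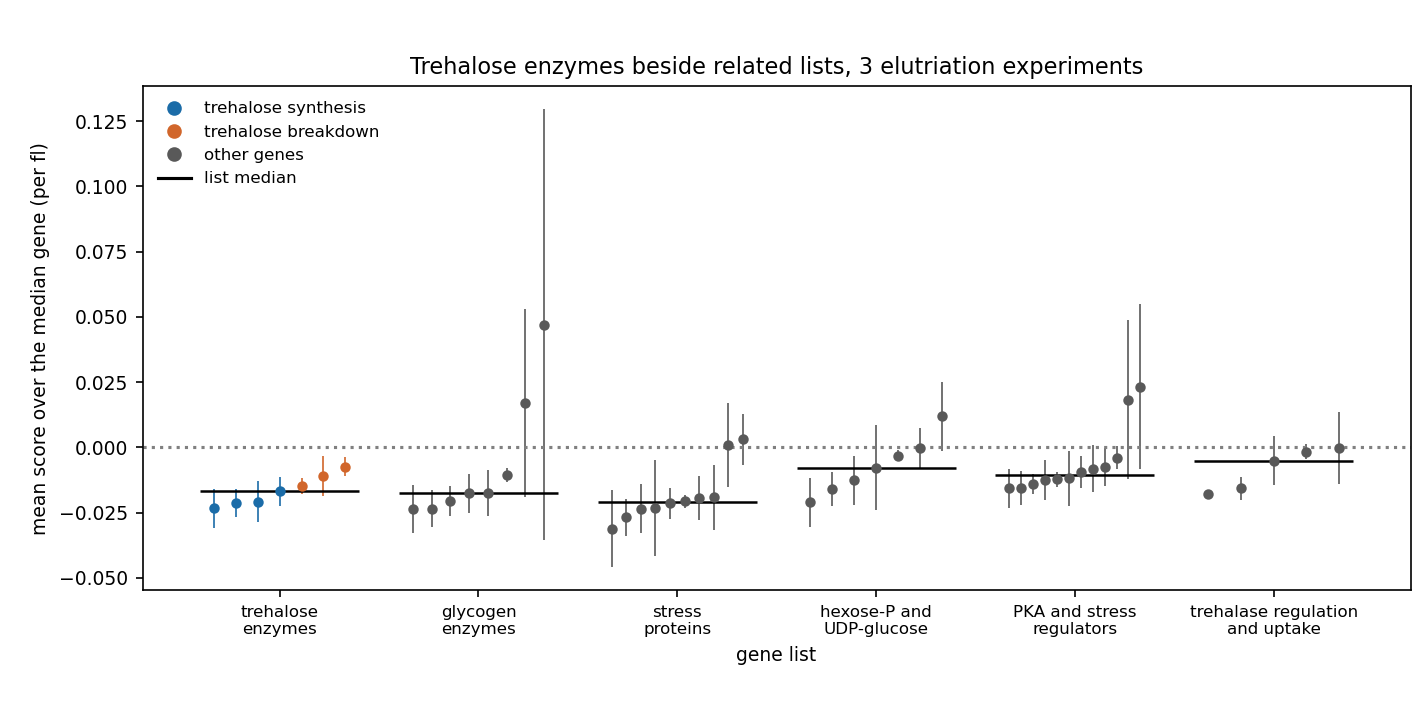
Mean score over the median gene in per fl (vertical axis) in the 3 elutriation experiments for the trehalose enzymes and 5 related gene lists (horizontal axis), 1 point per gene with bars of 1 SD over the 3 experiments and a line at each list's median. The trehalose enzymes all lie below 0, with the synthesis genes lowest, and the medians of the glycogen and stress protein lists are -0.0175 and -0.0211.

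Likeness to TPS1 and NTH1 was measured as the mean absolute difference in percentile over the 6 series, among 4093 genes with a score in all 6 and at least 10 median reads. On that scale TPS1 stood at 16.5, 2.30 and 2.64 in the elutriation experiments, 68.0 in the time course and 57.9 and 55.9 in the elutriated and unelutriated WT controls. The 5 genes nearest to it were YKL091C, the metallothionein gene CRS5, JIP4, YHR052W-A and YER079W, at mean differences of 4.60 to 5.68 percentile points. Other members were farther away: TSL1 ranked 132nd at 14.3 points and TPS2 150th at 14.8. The 5 genes nearest to NTH1 were RET2 of the COPI vesicle coat, the tropomyosin gene TPM1, VNX1, SCT1 and VMA2 of the vacuolar ATPase, at 6.47 to 7.72 points. The nearest member to NTH1 was TPS1, at rank 516 and 18.3 points.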

How the data were processed

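RNA was sequenced from 31 libraries in 6 series, grouped by the titles in the labels. Per the submitters' processing notes, the aligner was Bowtie2 and the build R64. The authors deposited a table with 1 scaling score per gene and series and, for experiment 1, a median read count per gene, a signal that is not a whole number for 2779 genes. The labels leave out counting, strand, normalization and the formula of the score, so no counting intervals could be made.

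Members were matched by name. R64 locus tags matched 6022 of 6713 identifiers and gave symbols, coordinates (1-based) and upstream sequence from RefSeq. The median gene's score over 5771 genes was subtracted in each elutriation experiment and every gene was tested with limma 3.58.1 (R 4.3.3). For Cdc28-as against WT, ranks over 5296 genes were turned into normal quantiles. Percentiles are over the genes scored in a series. The coding sequences of paralogues were aligned with Biopython 1.88. Both limma steps were run on simulated scores with large known shifts, and power for shifts as small as those of the members was not checked.

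Named are the 7 members, the 5 genes most like TPS1 and NTH1, and the 2 highest and 2 lowest of each related list. UGP1, MSN2, MSN4, BMH1 and the genes named for their stress response element matches were chosen after their values were seen, as were the 500-base window and the paralogue comparison by bases. From the list of regulators 1 gene is not reported here. Members and lists were chosen with earlier results of these data known. All 7 members have at least 10 median reads. The labels do not say whether the series came from separate cultures, so p-values measure only the spread between these series. Alternatives covered scaling, ranks, low reads, the covariate and each series left out.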

Additional observations from a re-analysis of the deposited data

Results flagged for a closer look

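In each of the 4 Cdc28-as series TSL1 lay under the median gene, at -0.0158, -0.0146 and -0.0133 per fl in elutriation experiments 1 to 3 and -0.0218 per fl in the time course. It lay above the median gene in both WT series, at 4.50 per hour in the elutriated and 0.0425 per hour in the unelutriated control. No other member scored in both WT series was split by genotype in this way. TSL1 was found by looking for this pattern among the members. The share of all genes with the same split was not counted, so how unusual it is cannot be said. In the time course TSL1 stood at the 43.2nd percentile, not far under the median gene. The limma test of the difference gave an adjusted p of 0.253.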

How the results depend on the processing

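Limma called 0 members in the elutriation experiments and 0 between genotypes under each alternative run. It also called 0% of all genes in each of these runs, so these counts tell nothing particular about the members. Each member lay under the median gene in each elutriation experiment, so its direction could not change with 1 left out or on normal scores. With at least 10 reads the estimates changed only through the subtracted median gene, and each was lower. In the elutriation fits all 7 kept their direction in 49 of 49 alternative estimates, 1 per member and fit, with adjusted p values of 0.0899 to 0.950 in limma. Most of these estimates could thus not have reversed. Between genotypes 50 of 54 kept it, with adjusted p values of 0.184 to 0.956. With 1 series left out the difference ran from -1.74 to 0.309 for TPS1, from -2.25 to 0.438 for ATH1 and from -1.76 to 0.315 for NTH2, positive for TPS1 and ATH1 without the elutriated WT control and for NTH2 without the time course or the unelutriated WT control. The cause was not tested. Leaving out either of these last series gives the same fit, because elutriation then absorbs the other. Leaving out the elutriated WT control leaves only the time course against the unelutriated WT control, because elutriation then absorbs the elutriation experiments. Synthesis minus breakdown was -0.0144 to -0.00885 per fl with 1 elutriation experiment left out, -0.00953 with arm means, -0.0115 without ATH1, and -16.6 percentile points on the percentile scale. A minimum of 10 reads removes no member. No paired analysis was possible because the table holds 1 score per series and no replicate columns.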

Other observations

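Across all genes the number of stress response element letters upstream went with the score in the elutriated Cdc28-as experiments, as a description over genes that are not independent. Of 3645 genes with 0 matches of AGGGG or CCCCT in the 500 bases before the start codon, 15.9% scored lower than the median gene in each of the 3 experiments. The share was 28.6% of 1428 genes with 1 match, 43.8% of 354 genes with 2, 59.3% of 81 genes with 3 and 80% of 25 genes with 4 or more. TPS1, TPS2 and TSL1 are among these last 25, as are HSP12, PGM2, UGP1 and RAS2. The 5 of the 25 that did not lie below throughout were SGA1, ACH1, ARB1, CUE4 and YNR014W. Genes that start from a shared intergenic region, such as TPS1 and YBR126W-A, can count the same match. Matches that overlap another gene were counted as well, among them some of TPS1 and TSL1. For GGAGG and CCTCC, letters of the same composition that can overlap the element, the share also rose, over a smaller range. It was 20.1% of 3490 genes with 0 matches, 24.3% of 1506 with 1 and 25.2% of 417 with 2. With 3 matches it was 32.3% of 96 genes, and with 4 or more 33.3% of 24. The window and this second motif were chosen after the scores were seen, and base composition was not tested further.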
